A study of Mus musculus with 8 samples.

Results

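The genes described here are 10 neural adhesion molecules of the immunoglobulin superfamily, taken by symbol from a deposited expression table of 18561 mouse genes: Ncam1, L1cam, Nrcam, Chl1, Nfasc, Cntn1, Alcam, Cadm1, Cadm2 and Cadm4. All 10 were found, once each, and all 10 had enough counts to be tested. Cells were sorted with antibodies against CD271 and CD57 from gastrointestinal tracts at embryonic day 14.5. The table covered 8 libraries labelled enteric neural crest cells, the precursors of gut neurons and glia. Of these, 5 were labelled Emb knockdown and 3 WT, and a tube held about 200 cells. The labels do not say how the knockdown was made, nor the strain, sex or litter of the embryos, nor whether libraries came from separate animals, so a p-value here reflects library-to-library spread alone, part of which may be technical.

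Immunoglobulin superfamily adhesion molecules sit on the cell surface and bind through extracellular immunoglobulin-like domains, either to the same molecule on a neighbouring cell or to a related one. NCAM and the L1 family (L1cam, Nrcam, Chl1 and Nfasc) act in axon growth, bundling and neuronal migration, and the L1 family holds the ankyrin and spectrin skeleton under the membrane. Contactin 1 is a lipid-anchored partner of such molecules, the Cadm proteins join axons, glia and synapses, and Alcam is found on neurons as well as on several other cell types. In the developing mouse gut, L1 is known from migrating enteric neural crest cells, which move as connected chains.

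Libraries held 20116566 to 26959246 counts, and 3 counts, the limit that a count of 0 allows, corresponded to 0.0966 to 0.155 CPM (counts scaled to library size with TMM factors). These limits cover counting error alone. Emb was not lower in the libraries labelled knockdown, at 353, 349, 37.2, 21.4 and 21.7 CPM, against 16.9, 17.7 and 15.9 CPM in WT, so a direction given here is a difference between labels. Knockdown-labelled libraries 1 and 2 stood apart from the rest. A list of 12 enteric progenitor markers summed to 213 and 168 CPM in them, to 1019 to 1138 CPM in knockdown-labelled libraries 3 to 5 and to 3076 to 3100 CPM in WT. A list of 14 neuron markers summed to 14.5 and 15.7 CPM, to 760 to 1363 CPM and to 1965 to 2516 CPM in the same order. Ngfr of the progenitor list, the gene of the sort antigen CD271, is named with its values known. It was at 17.3 ± 5.47 CPM in knockdown-labelled libraries 3 to 5 and at 147 ± 62.5 CPM in WT (SD, n = 3 each). In library 2 Sox10, Foxd3, Tfap2b and Tlx2 of the progenitor list and Snap25, Chrna3 and Dcx of the neuron list were at 0, and in library 1 Tfap2b, Snap25 and Chrna3 were. A list of 15 leukocyte markers summed to 29355 and 24701 CPM in those 2 libraries, to 1481 to 2649 CPM in libraries 3 to 5 and to 410.5 to 666 CPM in WT. Each result is therefore given with all 8 libraries and with the 6 that remain without these 2.

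Levels per length, as deposited FPKM, put Cadm1 first in WT, and Cadm4, Ncam1 and Alcam next, above the L1 family. Cadm1, a homophilic adhesion protein of synapses and epithelia, was at 151 ± 18.6 FPKM (SD, n = 3), and Cadm4, known from myelinating glia, at 60.4 ± 3.34 FPKM. Ncam1 followed at 42.9 ± 3.54 FPKM and Alcam at 20.5 ± 5.80 FPKM. The WT ranges of these 4 genes did not overlap, nor did that of Alcam overlap with L1cam, the next in order. L1cam (12.3 ± 0.906 FPKM) overlapped with Nfasc (8.81 ± 2.38), Nfasc with Chl1 (6.69 ± 1.42), and Chl1 with Nrcam (5.89 ± 0.480), so the order inside the L1 family was not resolved between neighbours. Cntn1 (1.12 ± 0.318 FPKM) and Cadm2 (0.140 ± 0.105 FPKM) were lowest.

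In knockdown-labelled libraries 3 to 5 the order of the leading genes was another. Cadm1 stayed first at 66.1 ± 15.5 FPKM (SD, n = 3), Ncam1 came next at 41.6 ± 6.59 FPKM and then Alcam at 37.3 ± 4.82 FPKM, with ranges of Ncam1 and Alcam that overlapped. Cadm4 came after these at 12.2 ± 4.23 FPKM. In libraries 1 and 2 Cadm1 was first too, at 14.1 and 11.9 FPKM, while Ncam1 was at 1.18 and 1.95 FPKM and the 4 genes of the L1 family were at or below 0.55 FPKM.

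**Figure D1:**
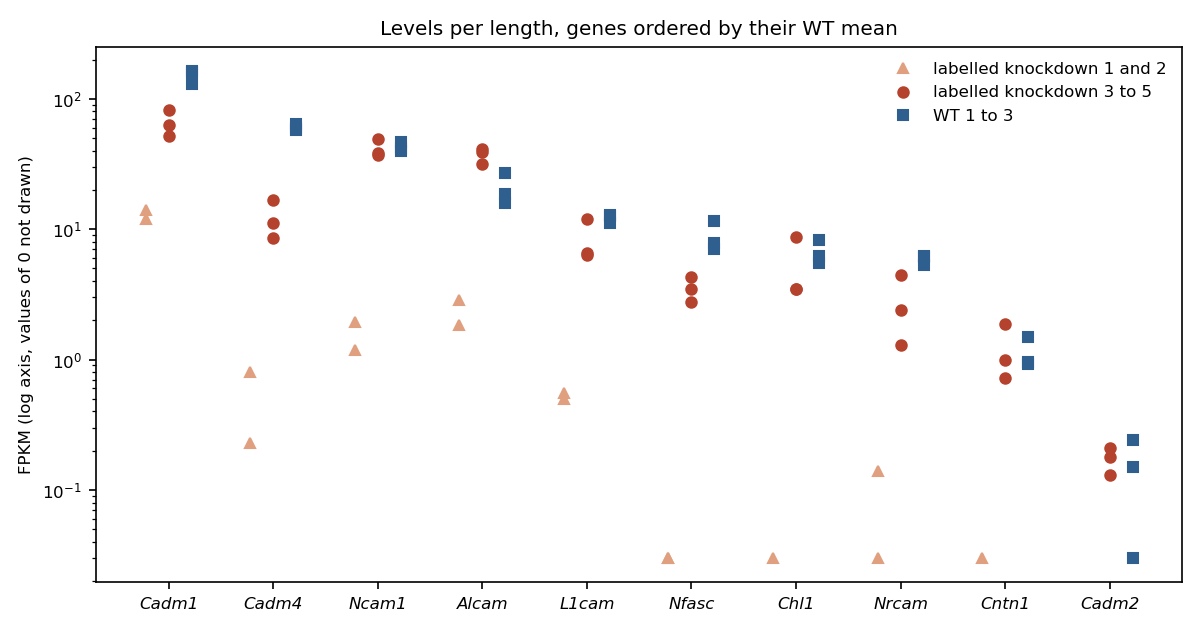
Deposited FPKM on a log axis of each of the 10 genes, ordered by their WT mean, with 1 point per library and values of 0 not drawn. Cadm4 lies at 8.58 to 16.9 FPKM in knockdown-labelled libraries 3 to 5 and at 57.8 to 64.2 FPKM in WT, while the points of Ncam1 in the same libraries overlap.

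With all 8 libraries, none of the 10 genes passed the threshold, an adjusted p under 0.05 over all genes tested. In edgeR's quasi-likelihood test 0 of 15411 genes (0%) passed, and the standard errors of the 10 genes ran from 0.53 to 1.56 on the log2 scale. At an unadjusted p under 0.05 there were 2 of the 10, against 18.6% of genes tested, and these were Cadm1 and Cadm4. DESeq2's Wald test called the same 2 (13.5% of genes), as did limma voom with quality weights (24.1%). All 5 libraries labelled knockdown were below all 3 WT libraries for Cadm4, Cadm1, Nfasc and Nrcam, which are 4 of 10 genes, against 11.9% of genes tested, and none of the 10 had all 5 above (10.8%). Log2 fold changes ran from -2.91 ± 1.02 for Cadm4 (edgeR adjusted p = 0.201) and -1.72 ± 1.27 for Nfasc (0.520) to 0.29 ± 0.89 for Alcam (0.900). Cadm1 was at -1.61 ± 0.53 (edgeR adjusted p = 0.188) and Ncam1 at -0.66 ± 1.00 (0.777). The median of the 10 genes was -1.10, against 0.07 over all genes tested.

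For all 10 genes, the lowest values of the 8 libraries were those of libraries 1 and 2. Ncam1, a homophilic adhesion protein that carries polysialic acid, was at 9.79 and 15.7 CPM there, and L1cam at 3.35 and 3.44 CPM. Nfasc, neurofascin, had 9 and 10 counts (0.46 and 0.47 CPM). Chl1 had 6 and 0 counts, Cntn1 0 and 4, and Cadm2 1 and 0, and the limit for 0 counts was 0.155 CPM in library 1 and 0.141 CPM in library 2. Cadm1 kept the highest level of the 10, at 78.3 and 62.5 CPM. In bulk libraries, fewer cells of a type and less RNA per cell cannot be told apart.

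**Figure D2:**
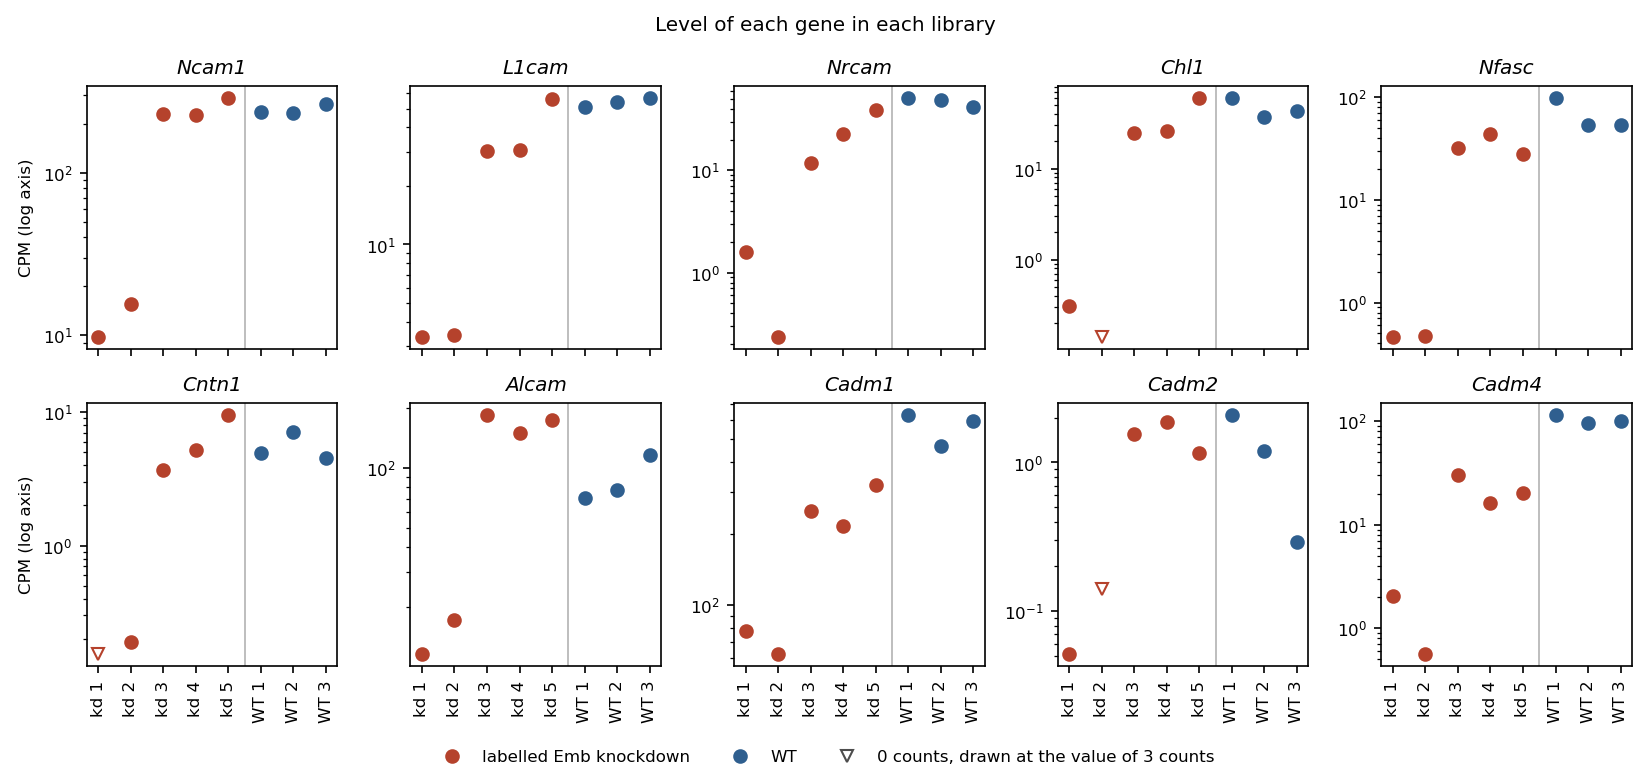
CPM of each gene in each library on log axes that differ between panels, with knockdown-labelled libraries 1 to 5 left of WT 1 to 3 and open triangles for 0 counts, drawn at the value of 3 counts. Alcam is at 150 to 185 CPM in knockdown-labelled libraries 3 to 5 and at 70.7 to 116 CPM in WT, and Cadm4 lies at 30.4 CPM or less in every library labelled knockdown.

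Without knockdown-labelled libraries 1 and 2, the 10 genes went in different directions: Cadm4, Cadm1 and Nfasc fell, Alcam rose, and 6 did not pass. In edgeR's quasi-likelihood test on these 6 libraries, 4 of 10 passed, against 20.4% of 15115 genes tested. The 3 that fell compare with 9.37% of genes lower and the 1 that rose with 11.1% higher. The median log2 fold change was -0.40, against 0.02 over all genes tested. Groups did not overlap for 4 genes that were lower (Cadm4, Cadm1, Nfasc and Nrcam; 23.0% of genes) and for 1 that was higher (Alcam; 20.4%). The count of 4 was 5 with DESeq2 (28.8% of genes called) and 5 with voom (45.5%), but 1 without knockdown-labelled library 4 and 2 without WT library 1, 2 or 3. Over all genes, 3090 passed, 180 without knockdown-labelled library 4, and 1388, 417 and 294 without WT library 1, 2 and 3. Cadm4 was the gene that passed in all 15 alternatives tried.

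**Figure D3:**
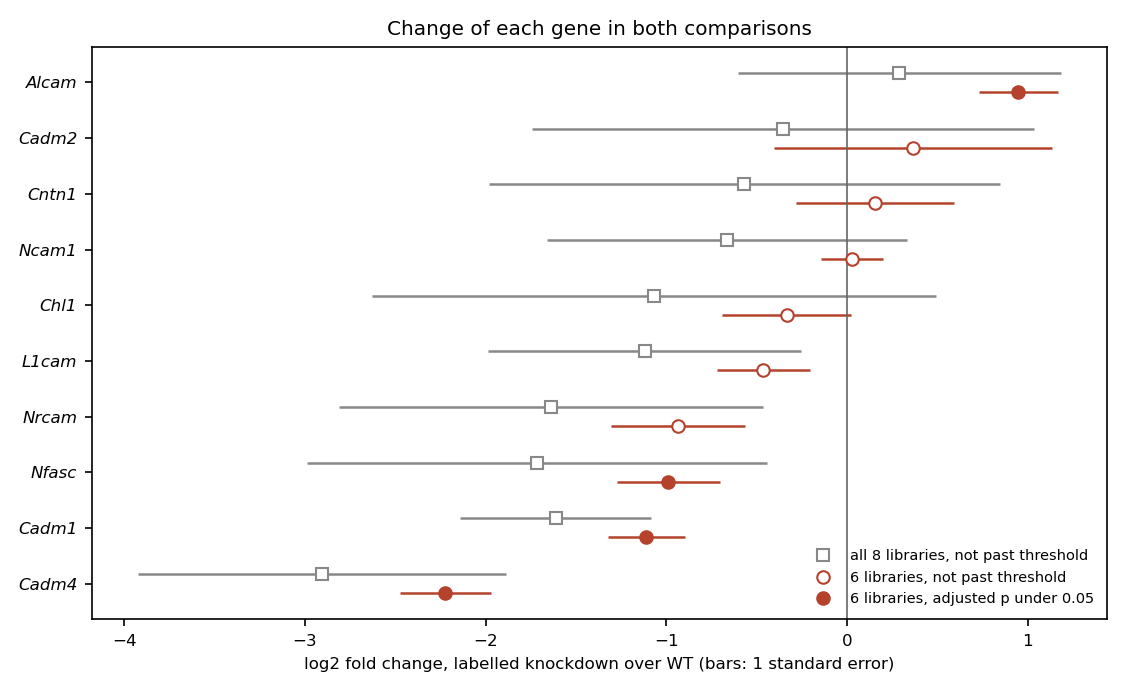
Log2 fold change of each gene, libraries labelled knockdown over WT, with bars of 1 standard error, for all 8 libraries (squares) and for the 6 libraries (circles), filled where the adjusted p was under 0.05. Filled points are at -2.22 for Cadm4, -1.11 for Cadm1, -0.99 for Nfasc and 0.95 for Alcam.

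Cadm4 fell more than any other of the 10 genes in the 6 libraries. Cadm4 (protein coding, chromosome 7, 24482023 to 24504533, plus strand, GRCm38.p6) encodes a nectin-like protein through which Schwann cells hold axons. It was at 30.4, 16.2 and 20.3 CPM in knockdown-labelled libraries 3, 4 and 5, against 115, 96.4 and 102 CPM in WT libraries 1, 2 and 3. No library labelled knockdown came near the WT range. The log2 fold change was -2.22 ± 0.25 (SE), a 4.67-fold lower level (edgeR adjusted p = 0.00352, from 4.0e-14 to 0.0315 over 15 alternatives). Sox10, which specifies crest progenitors and glia, had a log2 fold change of -1.90 ± 0.16 in the same fit (71.4 ± 5.41 against 266 ± 19.5 CPM, SD, n = 3 each). Of 8 glia markers 4 fell and 1 rose (2 to 4 fell and 0 to 1 rose with 1 library left out), with summed levels of 508 to 999 CPM in knockdown-labelled libraries 3 to 5 and 612 to 804 CPM in WT. Of 10 endothelial markers 8 fell and none rose (4 to 9 fell with 1 library left out), with sums of 109 to 204 CPM against 478 to 681 CPM. Of the 12 progenitor markers 9 fell (6 to 9 with 1 library left out). The part of these lists in the falls of Cadm4 and Cadm1 was not tested.

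Cadm1 fell by less, and Cadm2 had low counts and did not pass. Cadm1 (chromosome 9, 47530170 to 47862280, plus strand) was at 248, 216 and 321 CPM in knockdown-labelled libraries 3, 4 and 5, against 631, 469 and 599 CPM in WT. The groups did not overlap, and the log2 fold change was -1.11 ± 0.21, a 2.16-fold lower level (edgeR adjusted p = 0.0143). Leaving out knockdown-labelled library 4 (adjusted p = 0.0742) or WT library 3 (0.0695) ended this call. Cadm2 (chromosome 16, 66655416 to 67620917, minus strand), a synaptic relative, had 42, 40 and 25 counts in knockdown-labelled libraries 3, 4 and 5 and 48, 37 and 8 counts in WT. Its log2 fold change of 0.36 ± 0.77 did not pass (edgeR adjusted p = 0.762), and it turned to -0.10 without WT library 3.

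Alcam was the one of the 10 genes that rose in the 6 libraries. Alcam (chromosome 16, 52248996 to 52453081, minus strand) encodes activated leukocyte cell adhesion molecule, which binds itself and the lymphocyte receptor CD6. It was at 185, 150 and 175 CPM in knockdown-labelled libraries 3, 4 and 5, against 70.7, 77.8 and 116 CPM in WT. The lowest of these libraries labelled knockdown was above the highest WT library. The log2 fold change was 0.95 ± 0.22, or 1.93-fold (edgeR adjusted p = 0.0224), and leaving out knockdown-labelled library 4 (adjusted p = 0.0778), WT library 1 (0.0722) or WT library 2 (0.0994) ended the call.

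Markers of 2 other cell types moved the same way as Alcam in these 6 libraries. Of 10 mesenchyme markers 6 rose and none fell (1 to 6 rose with 1 library left out), and their sums were 5052 to 5577 CPM in knockdown-labelled libraries 3 to 5, against 2609 to 3845 CPM in WT. Of 15 leukocyte markers 13 rose and none fell (8 to 14 rose with 1 library left out). Ptprc, which encodes the leukocyte surface phosphatase CD45, was at 69.6 ± 5.43 CPM against 14.7 ± 3.93 CPM in WT (SD, n = 3 each). In knockdown-labelled libraries 1 and 2, where leukocyte sums were highest and mesenchyme sums were 64.9 and 481 CPM, Alcam was at 11.7 and 17.4 CPM, its lowest values. None of 9 epithelium markers passed in the 6 libraries (0 to 1 fell with 1 library left out). Their sums were 1592, 409 and 354 CPM in knockdown-labelled libraries 3, 4 and 5, against 464, 1302 and 442 CPM in WT. The part of any of these lists in the rise of Alcam was not tested.

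Within the L1 family, Nfasc fell, and Nrcam, L1cam and Chl1 did not pass in the 6 libraries. Nfasc (chromosome 1, 132564690 to 132741848, minus strand), which gathers sodium channels at the axon initial segment and nodes, was at 32.2, 43.4 and 27.8 CPM in knockdown-labelled libraries 3, 4 and 5. In WT it was at 98.1, 54.0 and 53.7 CPM, so the groups did not overlap while WT library 1 stood above the other two. The log2 fold change was -0.99 ± 0.29 (edgeR adjusted p = 0.0420). Leaving out knockdown-labelled library 4 (adjusted p = 0.0890) or 5 (0.103) ended the call, as did leaving out WT library 1 (0.125), 2 (0.0791) or 3 (0.0835), and voom (0.0650). Of 14 neuron markers 6 fell and none rose in the same fit (0 to 6 fell with 1 library left out), and their part in the fall of Nfasc was not tested.

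Nrcam (chromosome 12, 44328786 to 44605194, plus strand), which joins ankyrin at the same axonal sites, was at 11.9, 22.8 and 39.4 CPM in knockdown-labelled libraries 3, 4 and 5, against 51.2, 48.7 and 41.9 CPM in WT. All 3 were below WT, but they were spread more than 3-fold among themselves, and the log2 fold change of -0.94 ± 0.37 did not pass (edgeR adjusted p = 0.104). It passed with DESeq2 (adjusted p = 0.0473), with voom (0.00692) and without knockdown-labelled library 5 (0.0303).

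L1cam and Chl1 overlapped between the groups in 1 library labelled knockdown. L1cam (chromosome X, 73853778 to 73880838, minus strand) encodes L1, the founding member of the family. It was at 30.3, 30.7 and 56.3 CPM in knockdown-labelled libraries 3, 4 and 5, against 51.2, 54.1 and 56.7 CPM in WT. Chl1 (chromosome 6, 103510584 to 103733038, plus strand), the close homolog of L1, was at 24.6, 25.8 and 59.99 CPM, against 59.2, 37.0 and 43.2 CPM in WT. Libraries 3 and 4 were below the WT range for both genes, and library 5 was inside or just above it. The log2 fold changes were -0.46 ± 0.26 for L1cam (edgeR adjusted p = 0.222) and -0.33 ± 0.36 for Chl1 (0.524). Without knockdown-labelled library 5, L1cam passed at a log2 fold change of -0.82 (adjusted p = 0.0303) and Chl1 did not (0.0534), and L1cam also passed with voom (0.0118).

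Because L1cam is X-linked, sex-linked genes are given beside it. The 4 Y-linked genes measured, Ddx3y, Eif2s3y, Uty and Kdm5d, summed to 117, 195 and 253 CPM in knockdown-labelled libraries 3, 4 and 5 and to 81.0 and 93.5 CPM in libraries 1 and 2. In WT they summed to 30.9, 33.8 and 38.0 CPM. All 4 rose in the 6 libraries. Every library labelled knockdown had a higher sum than every WT library, so this difference goes with the label for each gene compared. The part of embryo sex in the values of L1cam or of the other adhesion genes was not tested.

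Ncam1 did not differ between the groups of the 6 libraries beyond their spread. Ncam1 (chromosome 9, 49502129 to 49799393, minus strand) was at 228, 226 and 287 CPM in knockdown-labelled libraries 3, 4 and 5, against 235, 231 and 264 CPM in WT. The ranges overlapped, and the log2 fold change of 0.03 ± 0.17 did not pass (edgeR adjusted p = 0.928), with -0.32 to 0.37 as the interval of 2 standard errors to each side. In the same fit Sox10 fell by 1.90 ± 0.16 and Tubb3, a neuronal tubulin, fell by 1.87 ± 0.31 on the log2 scale, both outside that interval. Leaving out knockdown-labelled library 4 ended the call of Tubb3 (adjusted p = 0.0563). The enzymes that add polysialic acid to NCAM did not pass in edgeR's test either. St8sia2 was at 28.6, 20.2 and 25.7 CPM against 27.2, 28.1 and 23.1 CPM in WT, and St8sia4 at 8.62, 11.3 and 10.7 CPM against 8.26, 5.22 and 4.33 CPM in WT (edgeR adjusted p = 0.833 and 0.130). For St8sia4 the groups did not overlap (20.4% of genes tested were higher without overlap). It passed with voom (adjusted p = 0.0126), which called 45.5% of genes. In knockdown-labelled libraries 1 and 2, St8sia2 was at 0 and 1.46 CPM and St8sia4 at 66.3 and 72.4 CPM, so the pair went opposite ways there.

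Cntn1 (chromosome 15, 92051152 to 92341967, plus strand) encodes contactin 1, which pairs with Cntnap1 and the glial form of neurofascin at the edge of nodes. It was low, at 3.70, 5.24 and 9.50 CPM in knockdown-labelled libraries 3, 4 and 5, against 4.91, 7.12 and 4.55 CPM in WT. The groups overlapped, and the log2 fold change of 0.15 ± 0.44 did not pass (edgeR adjusted p = 0.824). As for L1cam, Chl1, Nrcam, Ncam1 and Cadm1, its highest value among the libraries labelled knockdown was in library 5. The neuron markers summed to 1226, 760 and 1363 CPM in libraries 3, 4 and 5. Between libraries 3 and 4, L1cam (30.3 and 30.7 CPM), Chl1 (24.6 and 25.8 CPM) and Ncam1 (228 and 226 CPM) were close. Cntn1 (3.70 and 5.24 CPM) and Nrcam (11.9 and 22.8 CPM) were lower in library 3, and Cadm1 (248 and 216 CPM) was higher. The part of neuron content in these values was not tested.

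The make-up of the 10 genes differed between the groups. Cadm4 took 9.61%, 5.83% and 5.28% of their summed FPKM in knockdown-labelled libraries 3, 4 and 5, against 20.04%, 20.5% and 18.2% in WT. Alcam took 23.4%, 21.6% and 18.4%, against 4.95%, 6.62% and 8.29%. Ncam1 took 22.004%, 25.1% and 23.2%, against 12.4%, 15.0% and 14.3% in WT, with no overlap, although its own level did not differ detectably. The sum itself was 175, 147 and 212 FPKM in knockdown-labelled libraries 3, 4 and 5 and 320, 282 and 326 FPKM in WT, with Cadm1 and Cadm4 giving most of the WT sum. In knockdown-labelled libraries 1 and 2 the sum was 18.6 and 17.6 FPKM, of which Cadm1 took 75.8% and 67.6%.

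**Figure D4:**
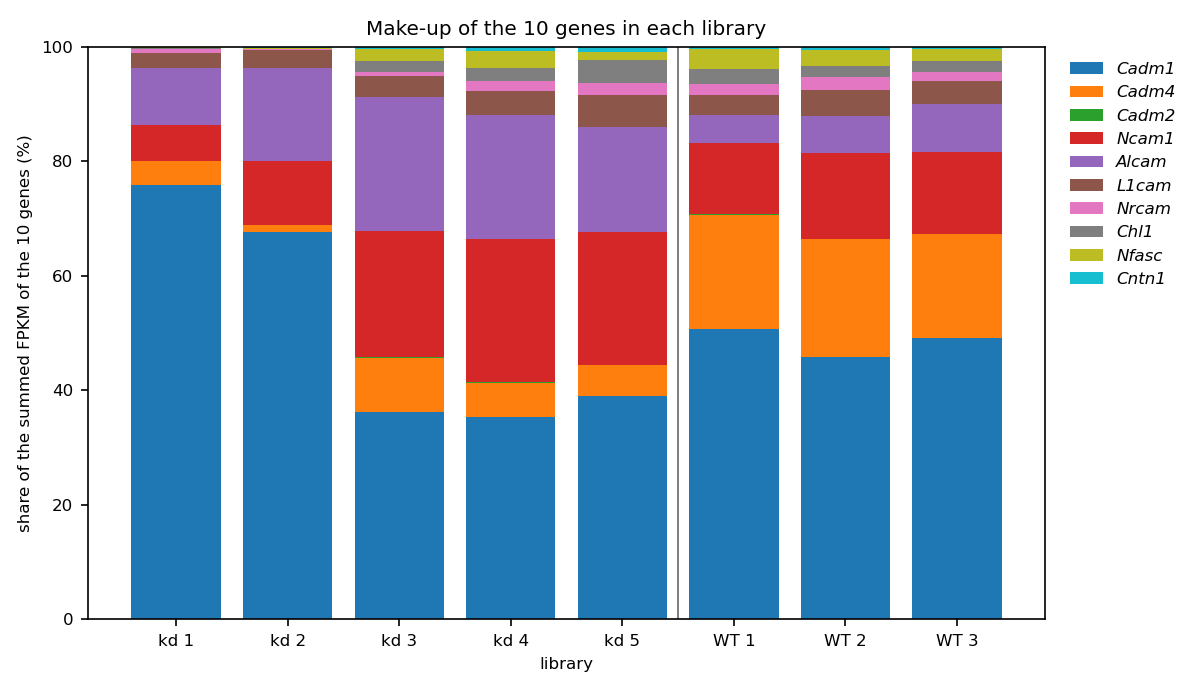
Share of each gene in the summed FPKM of the 10 genes, 1 bar per library, with knockdown-labelled libraries 1 to 5 left of WT 1 to 3. Cadm1 takes 35.4% to 39.1% in knockdown-labelled libraries 3 to 5 and 45.9% to 50.7% in WT, and Alcam and Ncam1 fill most of the difference.

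Stretches of 250 bases before an annotated start are shown for the genes that passed in the 6 libraries and had an entry in the RefSeq promoter table (GRCm38.p6), 2 that fell and 1 that rose. That table matched 8 of the 10 genes, not Ncam1 and Cadm1. Capitals mark the GC box GGGCGG, read on both strands and present here in 1 to 4 copies. Cadm4 lies at chr7:24481773-24482022 on the plus strand, Nfasc, at the more upstream of its 2 entries, at chr1:132707327-132707576 on the minus strand, and Alcam at chr16:52453082-52453331 on the minus strand. The Nfasc window lies inside the gene (132564690 to 132741848), while those of Cadm4 and Alcam lie directly before theirs.
Cadm4: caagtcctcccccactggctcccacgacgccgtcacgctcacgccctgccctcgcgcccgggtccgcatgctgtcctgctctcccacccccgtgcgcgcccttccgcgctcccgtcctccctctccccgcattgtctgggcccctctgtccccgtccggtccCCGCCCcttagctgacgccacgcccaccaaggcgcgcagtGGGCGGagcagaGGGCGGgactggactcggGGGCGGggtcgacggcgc
Nfasc: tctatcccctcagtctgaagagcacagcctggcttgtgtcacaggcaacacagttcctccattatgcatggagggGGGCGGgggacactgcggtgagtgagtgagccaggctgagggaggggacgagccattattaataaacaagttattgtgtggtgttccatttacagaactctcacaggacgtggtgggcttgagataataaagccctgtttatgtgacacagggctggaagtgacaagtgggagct
Alcam: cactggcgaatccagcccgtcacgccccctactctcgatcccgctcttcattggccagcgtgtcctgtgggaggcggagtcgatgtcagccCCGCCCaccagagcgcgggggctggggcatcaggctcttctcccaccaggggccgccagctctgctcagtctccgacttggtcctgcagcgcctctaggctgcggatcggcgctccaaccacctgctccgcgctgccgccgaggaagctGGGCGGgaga
The Cadm4 window held 4 GC boxes, that of Alcam 2 and that of Nfasc 1, and 32.7% of 32817 windows of the same length held at least 1. The GC content was 75.2% for Cadm4, 69.2% for Alcam and 52.0% for Nfasc, against a median of 52.4% over all windows. The CCAAT box (CCAAT) was found in the Alcam window and in neither of the others (33.8% of all windows), and the E-box CANNTG in those of Alcam and Nfasc (66.2%). A TATA box (TATAAA) was in none of the 3 (12.4%). A match of letters is not evidence of a binding site.

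Of 30 other adhesion genes of the superfamily or associated with it, 28 were tested in the 6 libraries, 3 rose (11.1% of all genes tested), 2 fell (9.37%), and 23 missed the threshold, a share of calls near that of all genes (20.4%). Their median log2 fold change was 0.05. Negr1, a lipid-anchored molecule of the IgLON family, rose by 1.82 ± 0.38 on the log2 scale (28.6 ± 14.8 against 8.09 ± 1.03 CPM, edgeR adjusted p = 0.0168). Sdk1, a sidekick protein of synaptic lamination, rose by 1.52 ± 0.33, and the contactin gene Cntn5 rose by 1.28 ± 0.34. Nectin2, a nectin of adherens junctions, fell by 0.88 ± 0.24. Cadm3, the axonal partner of Cadm4, was at 15.5, 4.54 and 11.1 CPM in knockdown-labelled libraries 3, 4 and 5 and 23.7, 15.8 and 20.03 CPM in WT without passing (edgeR adjusted p = 0.136). Cadm3 was picked for mention with its values known, as was Nectin3, the other gene of the list that fell.

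Of 28 partner genes 27 were tested, 2 rose, 5 fell, and 20 missed the threshold, against 11.1% higher and 9.37% lower over all genes tested. Their median was 0.11. Msn, encoding moesin, which links membrane proteins to actin, fell by 1.25 ± 0.18 on the log2 scale (103 ± 19.9 against 245 ± 5.76 CPM). The kinase gene Fyn, which signals from NCAM, fell by 0.81 ± 0.15, and Gap43, a growth cone protein, fell by 0.88 ± 0.18. Ank3, encoding ankyrin G, the cytoplasmic anchor of the L1 family, rose by 1.23 ± 0.26 (57.7 ± 17.3 against 24.6 ± 4.29 CPM, edgeR adjusted p = 0.0184), while Nfasc fell. Without knockdown-labelled library 4 the calls of all 8 of these named genes ended (adjusted p from 0.0564 to 0.157). All but that of Msn also ended without WT library 2 and without WT library 3. Those of Negr1, Cntn5 and Ank3 ended on both FPKM scales, those of Cntn5 and Nectin2 without knockdown-labelled library 5, and that of Cntn5 without WT library 1. Leaving out 1 library moved the calls from 0 to 6 higher and 0 to 4 lower in the first list and from 0 to 5 higher and 0 to 7 lower in the partner list. The other calls among the partners, Ptpra and Mpp3 lower and Dlg1 higher, are named with their values known. In knockdown-labelled libraries 1 and 2, Msn was at 693 and 816 CPM and Gap43 at 0.773 and 0.659 CPM.

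**Figure D5:**
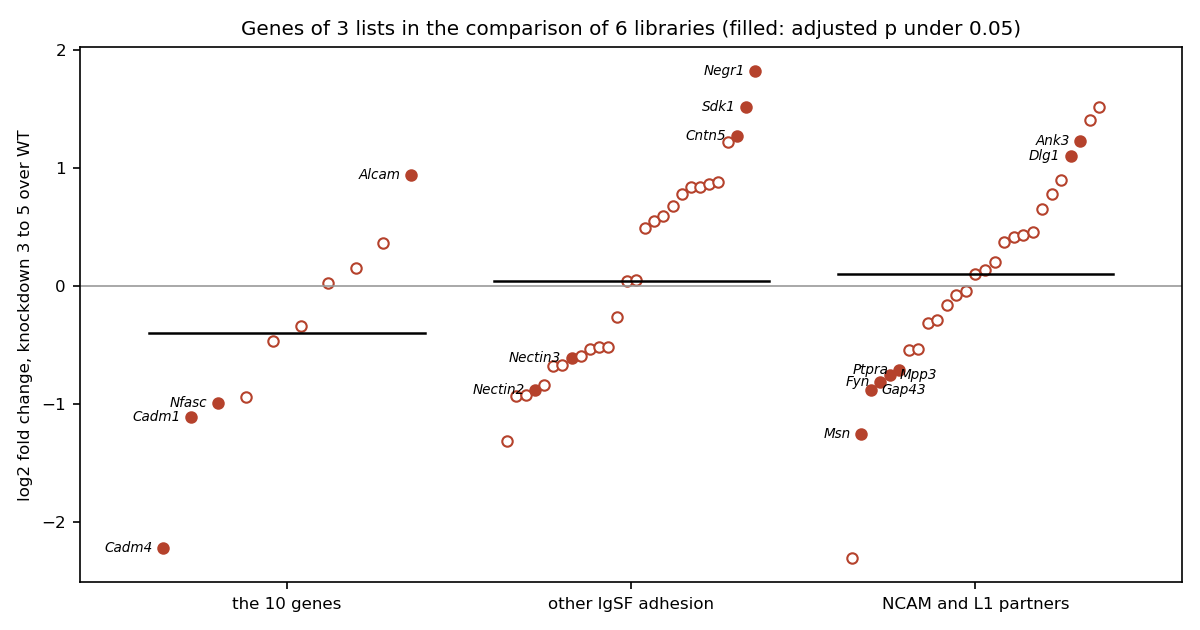
Log2 fold change in the 6 libraries (knockdown-labelled 3 to 5 over WT) of the 10 genes, of 28 other adhesion genes and of 27 partners, 1 point per gene, filled and named where the adjusted p was under 0.05, with a black line at each median. The medians are -0.40, 0.05 and 0.11, and filled points lie on both sides of 0 in each list.

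The genes whose levels ran most like those of the 10 differed from gene to gene. Likeness was the root mean square difference, over the 8 libraries, between centred log2 CPM profiles, among 10352 genes with a mean log2 CPM of at least 3, which left out Cntn1 and Cadm2. All 8 genes compared had their lowest values in knockdown-labelled libraries 1 and 2. Nearest to Ncam1 were Robo2, a Slit receptor (0.12), and Afap1 (0.12). Nearest to L1cam were Gpm6b, a neural membrane glycoprotein (0.18), and Napb (0.19). Nearest to Chl1 were the synaptic calcium sensor Syt1 (0.30) and the neuronal RNA-binding protein Elavl3 (0.35), and to Nfasc Mapk10 (0.31) and Celf3 (0.37). Nearest to Nrcam were Tbx3 (0.29) and Slc35f1 (0.31). Alcam ran with the homeobox gene Meis2 (0.19) and Egfr (0.20), Cadm1 with Rps6ka2 (0.16) and Caskin2 (0.23), and Cadm4 with Mmp15 (0.31) and the endothelial receptor gene Tie1 (0.34). Among the 10, Ncam1 and L1cam were nearest to each other (0.42), farther than 86 other genes were from L1cam.

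The deposited counts and FPKM together imply a gene length for each library, the count divided by FPKM and by the total count of the library, and this was looked at after the values were seen. It was computed for 11600 genes with at least 1 FPKM in each of the 6 libraries, 8 of the 10 adhesion genes among them. Nfasc came out at 9.997, 10.3 and 10.9 kb in knockdown-labelled libraries 3, 4 and 5, against 9.21, 7.98 and 8.47 kb in WT. That is 21.5% longer, and 3.88% of the genes had a ratio as large or larger. Nrcam came out at 9.88, 9.76 and 9.56 kb against 9.13, 8.96 and 8.76 kb in WT. Ncam1, Alcam, Cadm1 and Cadm4 differed by less than 1% on average, with overlapping groups. Implied lengths did not overlap between the groups for 3 of the 8 genes that were longer (Nfasc, Nrcam and L1cam; 10.4% of genes) and for 1 that was shorter (Chl1; 13.8%). A difference of this kind makes FPKM and count ratios differ: Nfasc was at 3.51 ± 0.782 FPKM against 8.81 ± 2.38 FPKM in WT, and at 34.5 ± 8.04 CPM against 68.6 ± 25.5 CPM (SD, n = 3 each). Whether the counts of a gene were shared among its transcripts is not given in the sources used here, and no transcript was measured on its own.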

How the data were processed

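Per the labels' protocols, cDNA of sorted cells was amplified with Smart-seq2 and sequenced as DNA nanoballs. HISAT and Bowtie2 with build GRCm38.p6 come from the submitters' processing notes; the counting tool and annotation are not given in the sources used here. The deposited expected counts are the authors' unnormalised gene estimates, per the file headers (17.6% to 19.8% of values not whole). FPKM and TPM, per the file headers, are the authors' values scaled to length and library. A deposited normalised count signal and the group means were not used. Smart-seq2 does not mark strand: reads of Ncam1 and Cadm2 exons that overlap an antisense gene (4.81% and 2.61% of exonic bases in GENCODE), and of L1cam exons shared with Arhgap4 (1.36%), cannot be told apart.

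Counts were rounded, filtered with filterByExpr, scaled with TMM and compared by edgeR 4.0.16 in R 4.3.3 (robust quasi-likelihood fit, two-sided), with Benjamini-Hochberg adjustment over all genes. CPM of single libraries use the scaling of 8 libraries, fold changes that of their own fit. None of the 13 pairs of libraries with the same label agreed within sampling noise (chi-square per degree of freedom at least 30.6). Alternatives used DESeq2 1.42.0, limma 3.58.1 (voom with quality weights, log2(FPKM + 1), log2(FPKM + 0.1)), other scalings and filters, and each library left out. The edgeR fit was tested on simulated data. All 10 members are named; of 2 further lists up to 4 genes with the smallest p, St8sia2 and St8sia4 were named. Members, lists and the comparison of 6 libraries were chosen with earlier results of these data known. Figures used Python 3.11.15 and matplotlib 3.10.9.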

Additional observations from a re-analysis of the deposited data

How the results depend on the processing

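With all 8 libraries the count of 0 genes past the threshold became 2 with DESeq2 and 2 with voom, and was 0 in the other alternatives, each library left out included. With the replicate number as a block, 0 of the 10 genes passed and Alcam had a log2 fold change of -1.44 in place of 0.29, but same-numbered libraries did not deviate together (correlations across genes of -0.03, 0.04 and -0.04), so the samples share only a number; no block could be fitted with 6 libraries, which share 1 number. On log2(FPKM + 1) and log2(FPKM + 0.1) Alcam had -0.55 and -0.70 with 8 libraries. Cadm2 had 0.90 with voom in place of -0.36 and ran from -0.81 to 0.32 with 1 library left out. With 6 libraries the count of 4 ran from 1 to 5 with 1 library left out. Ncam1, at 0.03, had -0.053 by library size alone, -0.072 with voom and -0.050 and -0.051 on the FPKM scales, and ran from -0.093 to 0.085; Cntn1 ran from -0.31 to 0.40, Cadm2 from -0.10 to 1.03 and St8sia2 from -0.20 to 0.058 with 1 library left out. St8sia4 had -0.061 and -0.080 on the FPKM scales. The causes were not tested. Library size alone moved the median of all genes from 0.07 to -0.17 with 8 libraries, where no gene was called in either setting. With 6 libraries 54.1% of all calls were higher, against 45.4% by library size alone and 38.4% on log2(FPKM + 1). The order of levels in WT was the same in TPM. Cadm2 had 48 counts or fewer in every library, which limits its precision.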
